A study of Mus musculus with 6 samples.

Results

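Circular RNAs (circRNAs) of 2 transcription factor genes, Foxp1 and Creb1, were compared in mouse striatum with and without excess HuD. The circRNAs are those whose array probes the study's annotation places on these genes, under their array names without the species prefix: Foxp1 circRNA_40606, circRNA_40615 and circRNA_40607, and Creb1 circRNA_013998. They are 4 of 14236 circRNAs on the array. The HuD-OE group was 3 adult male mice, labeled as strain C57BL6, that carry a transgene for myc-tagged HuD driven by the Camk2a promoter, so the extra protein is made where that promoter is active, in forebrain neurons. The WT group was 3 adult male C57BL6 littermates without the transgene. Ages beyond adult are not given in the labels. All 4 circRNAs are on the study's list of circRNAs recovered with HuD, and Creb1 circRNA_013998 and Foxp1 circRNA_40615 are also on the deposited list of circRNAs called higher in HuD-OE on these same arrays, so their differences below are not evidence independent of that list. RNAse R, which degrades linear RNA from its ends, was applied to striatal RNA, and each sample was hybridized in 1 color to 1 Arraystar Mouse circRNA Array V2.

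CircRNAs form when a downstream splice site is joined back to an upstream one, which leaves a closed loop without a cap or tail. Their identity rests on the back-splice junction, the one stretch of sequence that the linear transcript of the same gene lacks. Foxp1 encodes a forkhead-domain transcription factor that is abundant in striatal projection neurons and contributes to their differentiation. Creb1 encodes the leucine zipper transcription factor CREB1, which binds cAMP response elements and is switched on by phosphorylation after synaptic activity and cAMP signaling. HuD, the product of Elavl4, is a neuronal RNA-binding protein known for binding AU-rich and GU-rich stretches and for stabilizing messenger RNAs. The comparison of HuD-OE with WT asks whether the level of these circRNAs differs when HuD is in excess.

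The annotated junction sequences, 60 bases each, show the stretch around each back-splice and how AU-rich it is. Where the back-splice falls within the 60 bases is not given, so a printed stretch can hold exon sequence that the linear transcript has too. They are given 5′ to 3′ as DNA letters, taken from the study's annotation, with the longest uninterrupted run of A and T letters in capitals. For circRNA_40606 and circRNA_40615 only the first 30 of 60 bases are printed, which may not reach the back-splice, and the longest run of circRNA_40606 lies in the part that is not printed.
Foxp1 circRNA_40615: gccAAAAAATTAAATAAATAAAAggctcct
Foxp1 circRNA_40606: cccaaaagggaaagggtgagacgtgacctt
Foxp1 circRNA_40607: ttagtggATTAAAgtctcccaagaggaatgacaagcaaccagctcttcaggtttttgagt
Creb1 circRNA_013998: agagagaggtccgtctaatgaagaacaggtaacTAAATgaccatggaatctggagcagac

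Foxp1 circRNA_40615 holds a run of 20 A and T letters, and no other of the 726 annotated junction sequences has a run as long. The longest run was 5 letters in circRNA_40606, 6 in circRNA_40607 and 5 in Creb1 circRNA_013998, against a median of 5 over the 726 sequences. Those 726 are a set that the study selected, mostly circRNAs recovered with HuD, and not a sample of the array. In overall A and T content the 4 sequences were alike, from 55.0% to 58.3%. The motif ATTTA, a core of AU-rich elements, was found in none of the 4 on the strand given, and in 4.68% of the 726 sequences. The motif TTTTT was found in circRNA_40607 and in 3.31% of the 726. Only the strand given was searched, since the RNA is single-stranded, and a match within 60 bases says nothing about the rest of a circle.

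The 3 Foxp1 circRNAs cover different stretches of the gene on the minus strand of chromosome 6, all annotated as exonic. Foxp1 circRNA_40606 spans chr6:99003200-99260419, which is 257.22 kb of genome from its first to its last base. Foxp1 circRNA_40607 spans chr6:99075854-99163029, or 87.2 kb, and lies wholly inside circRNA_40606, where it takes up 33.9% of the span. Foxp1 circRNA_40615 spans chr6:99260345-99308438, or 48.1 kb, at the upstream side of circRNA_40606. It shares 75 bases with circRNA_40606, chr6:99260345-99260419, and none with circRNA_40607, from which it is 97.3 kb away. Creb1 circRNA_013998 spans chr1:64550849-64576329 on the plus strand, or 25.5 kb, also exonic. The genome build of these coordinates is not given in the sources used here. The positions of all 4 stand in the same list. For the 3 Foxp1 circRNAs an alias in that list gives other coordinates, which differ by the same 50006 bases in all 3, so their spans and overlaps are the same in both. All 4 spans lie inside their host gene in the RefSeq table of GRCm38.p6. Spans include introns, so they are not the lengths of the circles, and which inner exons each circle keeps was not analysed here.

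**Figure D1:**
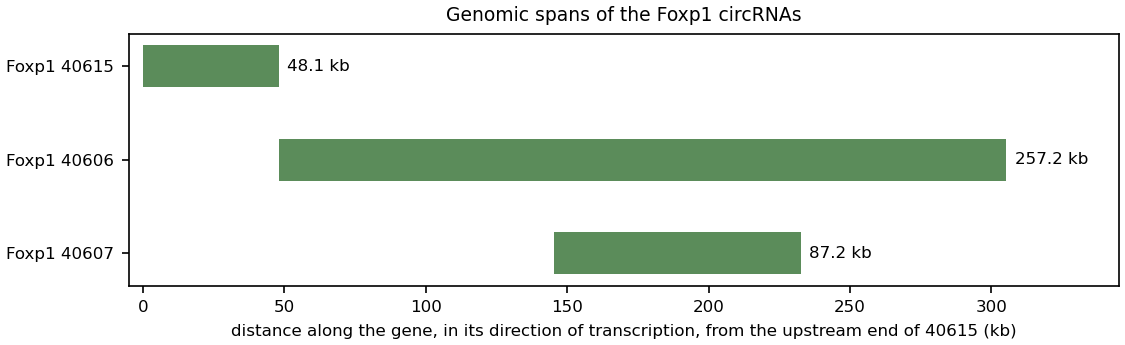
Genomic span of each Foxp1 circRNA as a bar, with distance in kb on the x axis from the upstream end of circRNA_40615 in the direction of transcription. The bar of circRNA_40607 (87.2 kb) lies within that of circRNA_40606 (257.2 kb), and the bars of circRNA_40615 (48.1 kb) and circRNA_40606 meet at a shared stretch of 75 bases.

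The deposited annotation also lists 5 miRNAs with predicted binding sites for circRNA_40615 and 5 for Creb1 circRNA_013998, and none of the 10 miRNAs was measured on these arrays. For circRNA_40615 these are mmu-miR-370-5p, mmu-miR-346-3p, mmu-miR-6415, mmu-miR-7067-5p and mmu-miR-6914-5p, each with a seed of its own. For Creb1 circRNA_013998, mmu-miR-6911-5p, mmu-miR-7688-5p and mmu-miR-216a-3p each have their own seed, while 2 others share one, so that the 10 miRNAs hold 9 seeds. That pair is shown 5′ to 3′ from RefSeq (GRCm38.p6) with the seed, bases 2 to 8, in capitals.
mmu-miR-5623-5p: uGGCAGCUggcaagucagaaugca
mmu-miR-7242-3p: uGGCAGCUcggcucuacucugg
The letters that pair with a seed were found in 0 of the 10 cases in the circRNA's own 60-base junction sequence, which leaves the rest of the circle unread.

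All 4 circRNAs were well above background on all 6 arrays, with no saturated spot and none marked as an outlier. WT 3 gave a dim array: 60.3% of the array's circRNA probes were well above background there, against 87.2% to 95.7% on the other 5. This array was scanned apart from the other 5, which share 1 scan. On WT 3 the spots of the 4 circRNAs were 1.94 to 14.1 times their local background, against 3.71 to 90.0 times on the other 5 arrays. The array row read from the scanner output was 1 for the 3 HuD-OE samples and WT 1, and 2 for WT 2 and WT 3. No probe is paired with Elavl4 in the tables used here, so the transgene was not checked. Of the marker genes fixed for cell types, circRNAs are paired here with 2 of 10 for striatal projection neurons (Arpp21 and Bcl11b) and 2 of 5 for astrocytes (Slc1a2 and Slc6a11), and with 0 of 4 for oligodendrocytes and 0 of 2 for microglia. The 4 neuronal circRNAs had log2 fold changes from 0.07 to 1.23 and the 2 astrocytic ones from -0.26 to -0.09, and none passed the limits below, and the makeup of the tissue was not tested further. In bulk tissue, fewer cells of a type and less RNA per cell cannot be told apart.

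Creb1 circRNA_013998 was higher in HuD-OE than in WT striatum by the unadjusted limits used for these arrays, and not after adjustment. The background-corrected intensity of its spot read 224.4, 128.0 and 181.3 on HuD-OE arrays 1, 2 and 3. On WT arrays 1, 2 and 3 it read 93.7, 102.6 and 13.2. After log2 conversion and subtraction of each array's 75th percentile, the HuD-OE values became 0.82, 0.72 and 0.77, and those of WT -0.36, -0.31 and -1.71. The 3 HuD-OE values lay close together and all exceeded the WT values, with WT 3 far below the other WT arrays. The mean was 0.77 ± 0.05 in HuD-OE and -0.80 ± 0.80 in WT (SD, n = 3). The log2 fold change was 1.57 ± 0.45 (SE, 95% interval 0.53 to 2.60), or 2.96-fold. By limma, p was 0.00808 unadjusted and 0.866 after Benjamini-Hochberg adjustment over the 13460 circRNAs tested, so the difference did not pass an adjusted limit. The exact permutation test over the 6 samples gave p = 0.1 (two-sided), the smallest that 3 against 3 can reach.

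Creb1 circRNA_013998 was the only 1 of the 4 past both limits, which were a 1.5-fold difference and an unadjusted limma p of 0.05. Over all tested circRNAs, 2.51% passed both limits as higher and 0.483% as lower in HuD-OE, or 338 and 65. This balance depended on the processing, with 127 higher and 301 lower after normexp background correction and 769 higher and 716 lower without WT 1. Since Creb1 circRNA_013998 is on a list called from these arrays, its passing restates that choice in part. It was also the only 1 of the 4 whose HuD-OE arrays all exceeded all WT arrays, which held for 7.37% of all tested circRNAs. By unadjusted p it ranked 62 of 13460. Across all tested circRNAs the median log2 fold change was 0.15, and that of Creb1 circRNA_013998 was 1.41 above that median.

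The 2 nearer WT arrays already lay below the HuD-OE values for Creb1 circRNA_013998. Without WT 3, its log2 fold change fell to 1.11 ± 0.28 (SE) with an unadjusted limma p of 0.00562. A block for array row leaves the 3 HuD-OE arrays against WT 1, and with it the value was 1.13 ± 0.65 and no longer passed (limma, unadjusted p = 0.117).

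**Figure D2:**
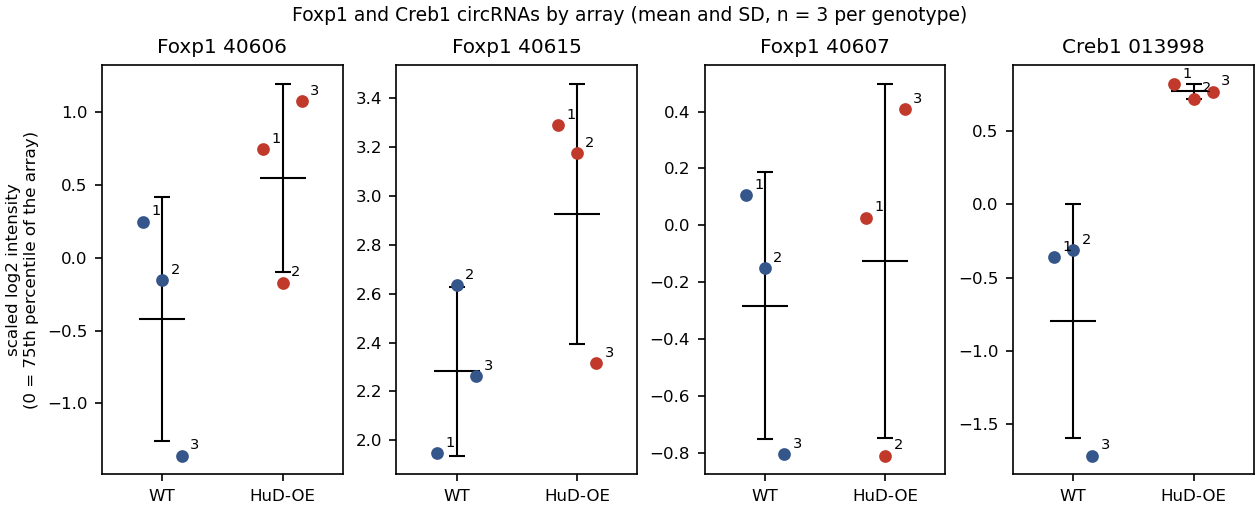
Scaled log2 intensity (y axis, with its own range in each panel, 0 being the array's 75th percentile) of the 4 circRNAs in WT and HuD-OE. Points are arrays with their replicate number, and bars give the mean and SD of 3 arrays. For Creb1 circRNA_013998 the HuD-OE points (0.72 to 0.82) lie above all WT points, while the genotypes overlap for each Foxp1 circRNA.

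Foxp1 circRNA_40606, the circRNA with the widest span, had a higher mean in HuD-OE, but the genotypes overlapped. Its background-corrected intensity read 213.2, 69.1 and 224.6 on HuD-OE arrays 1, 2 and 3, and 143.1, 114.7 and 16.9 on the WT arrays. On the scaled log2 axis the HuD-OE values were 0.75, -0.17 and 1.08, and those of WT 0.25, -0.15 and -1.36. HuD-OE 1 and 3 were above all WT arrays, whereas HuD-OE 2 was below WT 1 and near WT 2. The means were 0.55 ± 0.65 and -0.42 ± 0.84 (SD, n = 3). Their difference, the log2 fold change, was 0.97 ± 0.53 (SE, 95% interval -0.25 to 2.19). The limma p was 0.104 unadjusted and 0.866 adjusted, and the exact permutation test gave p = 0.3. Without WT 3 the log2 fold change was 0.50 ± 0.43 (limma, unadjusted p = 0.286), and with the array row as a block it was 0.30 ± 0.71. It passed both limits of the limma test without HuD-OE 2 (1.33) and without WT 1 (1.31).

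Foxp1 circRNA_40615, the upstream circRNA with the long A and T run in its annotated sequence, also overlapped between genotypes. Its background-corrected intensity read 1241, 702 and 530 on HuD-OE arrays 1, 2 and 3, and 465, 791 and 208 on the WT arrays. Its spots were the brightest of the 4, but brightness also depends on the probe, so the levels of different circRNAs are not ranked. The scaled log2 values of HuD-OE were 3.29, 3.18 and 2.32, and those of WT 1.95, 2.64 and 2.26. HuD-OE 1 and 2 were above all WT arrays, and HuD-OE 3 was below WT 2. WT 3 was not the lowest WT array here. The means were 2.93 ± 0.53 and 2.28 ± 0.34 (SD, n = 3). The log2 fold change was 0.64 ± 0.40 (SE, 95% interval -0.29 to 1.57), with a limma p of 0.150 unadjusted and 0.866 adjusted and an exact permutation p of 0.2. Without WT 3 the difference was 0.63 ± 0.42, and with the array row as a block it was 0.98 ± 0.61. After quantile normalization it was 1.03 ± 0.36 and passed both limits (limma, unadjusted p = 0.0191).

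Foxp1 circRNA_40607, the inner circRNA, had a genotype difference close to the median of all tested circRNAs. Its background-corrected intensity read 129.4, 44.3 and 141.2 on HuD-OE arrays 1, 2 and 3, and 129.5, 114.6 and 24.8 on the WT arrays. The scaled log2 values of HuD-OE were 0.03, -0.81 and 0.41, and those of WT 0.10, -0.15 and -0.81. The genotypes covered almost the same range, with HuD-OE 2 and WT 3 the lowest of each. The means were -0.13 ± 0.62 and -0.28 ± 0.47 (SD, n = 3). The log2 fold change was 0.16 ± 0.44 (SE, 95% interval -0.86 to 1.18), against a median of 0.15 over all tested circRNAs. The limma p was 0.731 unadjusted and 0.945 adjusted, and the exact permutation p was 0.8. The sign of this difference turned without WT 3 (-0.10), without HuD-OE 3 (-0.11), with median centring (-0.02) and with the array row as a block (-0.23). The interval still holds changes of more than 1.5-fold either way.

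HuD-OE 2 and WT 3, the lowest arrays for circRNA_40606 and circRNA_40607, were also those with the lowest 75th percentile of intensity, 77.7 and 43.4 against 106 to 127 on the other 4 arrays. Over the 6 arrays, the scaled values of circRNA_40606 and circRNA_40607 correlated with the log2 of that percentile at r = 0.81 and r = 0.77, those of Creb1 circRNA_013998 at 0.64 and those of circRNA_40615 at 0.15. These correlations are given as a description over arrays that share a genotype or an array row. The part of array brightness in the differences was not tested.

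The 3 Foxp1 circRNAs were then set against each other within each array, which removes a scale factor common to both spots, but not a background added to both, and compares changes, not levels. The difference of circRNA_40606 minus circRNA_40607 on the log2 scale was 0.72, 0.64 and 0.67 on HuD-OE arrays 1, 2 and 3, and 0.14, 0.001 and -0.55 on the WT arrays. All HuD-OE arrays exceeded all WT arrays, and the HuD-OE values lay within a narrow range. The means were 0.68 ± 0.04 and -0.14 ± 0.37 (SD, n = 3), so the difference was 0.81 ± 0.21 (SE) higher in HuD-OE. The exact permutation test gave p = 0.1, the smallest possible with 3 against 3, and 0.3 after Benjamini-Hochberg adjustment over the 3 pairs. Without WT 3 the difference was 0.60 ± 0.06, with no overlap between genotypes. How many other pairs of circRNAs on the array separate the genotypes in this way was not counted. On WT 3 the spots of circRNA_40606 and circRNA_40607 were 2.21 and 2.74 times their local background, and with normexp background correction the difference was 0.54 ± 0.09.

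The other 2 pairs overlapped between genotypes. The difference of circRNA_40606 minus circRNA_40615 was -2.54, -3.34 and -1.24 on HuD-OE arrays 1, 2 and 3, and -1.70, -2.79 and -3.62 on the WT arrays. Its change between genotypes was 0.33 ± 0.83 (SE, exact permutation p = 0.7, 0.7 adjusted over 3 pairs), and it turned to -0.13 without WT 3 and to -0.24 without HuD-OE 3. The difference of circRNA_40615 minus circRNA_40607 was 3.26, 3.99 and 1.91 on the HuD-OE arrays, and 1.84, 2.79 and 3.07 on the WT arrays. Its change was 0.49 ± 0.71 (SE, exact permutation p = 0.4, 0.6 adjusted), and it came to 0.02 without HuD-OE 2, 0.12 without WT 1, 0.74 without WT 3 and 1.06 without HuD-OE 3. It was 0.93 after quantile normalization. In both pairs the arrays of a genotype differed by more than the genotypes did. Across the 6 arrays, the scaled values of circRNA_40606 and circRNA_40607 correlated at r = 0.85, while circRNA_40615 correlated with circRNA_40606 at 0.17 and with circRNA_40607 at -0.27, again as a description.

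**Figure D3:**
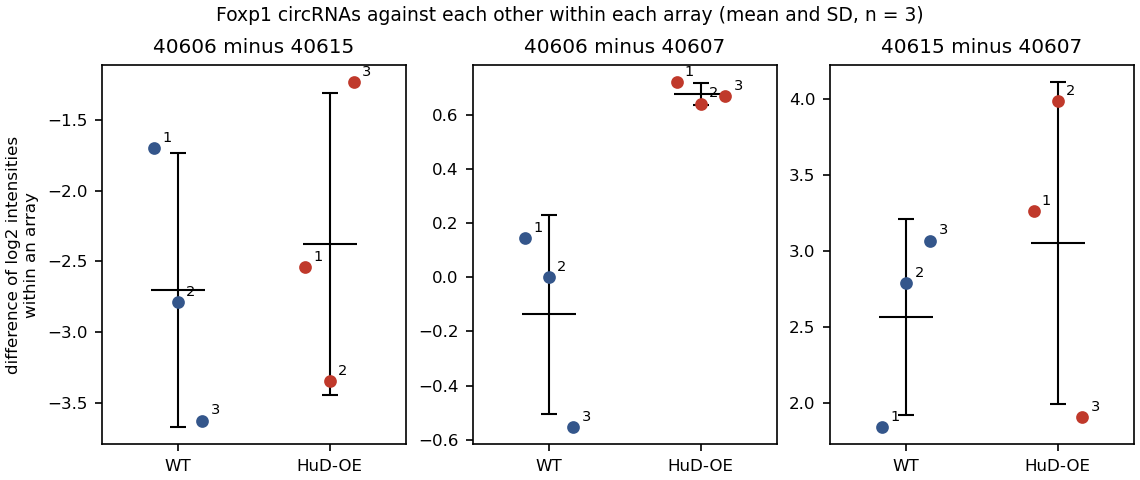
Difference of log2 intensities between pairs of Foxp1 circRNAs within each array (y axis, with its own range in each panel) for WT and HuD-OE. Points are arrays with their replicate number, and bars give the mean and SD of 3 arrays. The genotypes are separate for circRNA_40606 minus circRNA_40607 (HuD-OE 0.64 to 0.72, WT -0.55 to 0.14) and overlap for the other pairs.

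CircRNAs of other genes were taken as 2 lists, both drawn from the study's list of circRNAs recovered with HuD. The first held 41 circRNAs from 30 other transcription factor genes, all of which were tested. Of these, 0 passed both limits in either direction and 0 had an unadjusted limma p under 0.05, against the 2.51% and 0.483% given above for all tested circRNAs. Their median log2 fold change was 0.33, beside 0.15 for all tested, and 27 of 41 were above 0, or 65.9% beside 61.9% of all tested. The highest were Tcf4 circRNA_006801 at 0.93 ± 0.66 (SE) and Cux1 circRNA_39536 at 0.93 ± 0.45. Their scaled log2 values on WT 3, the dim array, were -4.70 and -1.96, below those on WT 1 (-2.07 and -0.50) and WT 2 (-2.88 and -0.81). Tcf4 is a basic helix-loop-helix factor, and Cux1 a homeodomain factor of cortical neurons. The lowest were Myt1l circRNA_24846 at -1.20 ± 0.53 and Ets1 circRNA_43955 at -1.12 ± 0.53. Myt1l is a zinc finger gene of neuronal identity, and Ets1 the founding gene of the ETS family. For both, WT 3 was the highest WT array, at -0.22 and 1.64. What these fold changes would be without WT 3 was not tested.

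Some members of that list belong to the families of Foxp1 and Creb1, and they were picked for naming after their values had been seen. Foxk2, another forkhead gene, gave 0.75 ± 0.39 (SE) for circRNA_24499 and 0.57 ± 0.38 for circRNA_24500. Atf2, another leucine zipper factor that binds cAMP response elements, gave -0.26 ± 0.32 for circRNA_002503 and -0.50 ± 0.54 for circRNA_33881. Atf6, a leucine zipper factor of the endoplasmic reticulum stress response, gave 0.78 ± 0.46 for circRNA_21268. None of these passed both limits (limma).

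The second list held 37 circRNAs from 22 genes of signaling proteins upstream of CREB1 or its coactivators, some known to promote and some to limit its activity, such as kinases, calmodulins, G proteins and phosphatase subunits. All were tested, 0 passed both limits and 0 had an unadjusted limma p under 0.05, beside 2.51% called higher and 0.483% called lower of all tested. Their median log2 fold change was 0.13, beside 0.15 for all tested, with 23 of 37 above 0, or 62.2% beside 61.9%. The highest were Prkar1a circRNA_24406 at 0.90 ± 0.63 (SE) and Ppp3ca circRNA_36214 at 0.84 ± 0.58. Their host genes encode a regulatory subunit of protein kinase A and a catalytic calcineurin subunit. Their scaled log2 values on WT 3 were -2.98 and -2.60, below those on WT 1 (-0.32 and -0.61) and WT 2 (-1.66 and -0.62). The lowest were Camk1d circRNA_32884 at -0.73 ± 1.31 and Camk2a circRNA_31794 at -0.52 ± 1.09, both from calmodulin-dependent kinase genes. The values of Camk1d circRNA_32884 ranged from 0.44 to 3.56 in HuD-OE and from -0.21 to 5.19 in WT. This spread within each genotype was wider than for any of the 4 circRNAs of Foxp1 and Creb1. Its value of 5.19 was on WT 3, the dim array, against -0.21 and 2.81 on WT 1 and WT 2. For Camk2a circRNA_31794, WT 3 was the lowest WT array (0.82), and HuD-OE 2 read -1.86 beside 2.32 and 2.56 on HuD-OE 1 and 3. What the fold changes of these named circRNAs would be without WT 3 was not tested.

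**Figure D4:**
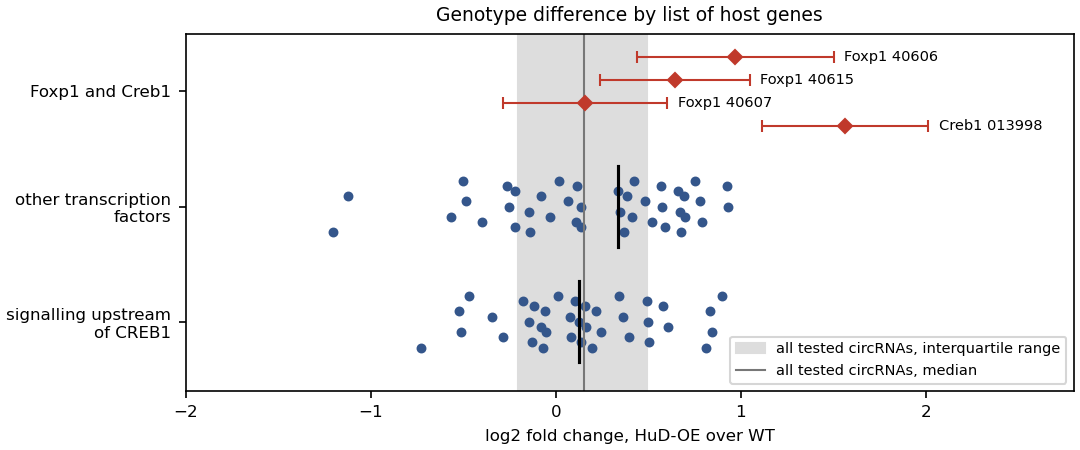
Log2 fold change of HuD-OE over WT (x axis) for the 4 circRNAs (diamonds, bars give the SE) and for 41 circRNAs of other transcription factor genes and 37 of signaling genes upstream of CREB1 (points, placed vertically for legibility, black lines give list medians of 0.33 and 0.13). The gray band and line give the interquartile range and the median (0.15) of all 13460 tested circRNAs. The lists were drawn from circRNAs recovered with HuD, while Creb1 circRNA_013998 (1.57) and Foxp1 circRNA_40615 (0.64) are also on the deposited list of higher circRNAs.

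The circRNAs whose pattern over the 6 arrays was most like each member were sought among those paired with another gene, 713 for the Foxp1 circRNAs and 715 for Creb1, which are circRNAs the study had selected and not a sample of the array. For Creb1 circRNA_013998 they were Rpl4 circRNA_19520 (r = 0.996), Upf2 circRNA_32914 (0.994) and Wdr7 circRNA_012939 (0.994). For Foxp1 circRNA_40606 they were Zfp609 circRNA_004501 (0.992), Edil3 circRNA_26645 (0.987) and Adss circRNA_21386 (0.986). For Foxp1 circRNA_40607 they were Fip1l1 circRNA_38798 (0.998), Psmd7 circRNA_43436 (0.995) and Rab6a circRNA_41996 (0.993). The median r over all compared circRNAs was 0.56 for Creb1 circRNA_013998, 0.78 for circRNA_40606 and 0.74 for circRNA_40607, so high values were common. Foxp1 circRNA_40615 differed in this, with a median r of -0.03, and its nearest were Ncoa7 circRNA_21810 (0.925), XLOC_027457 circRNA_19555 (0.899) and Golph3 circRNA_28260 (0.892).

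Creb1 circRNA_013998 passed both limits in 18 of 19 other processing settings, Foxp1 circRNA_40615 in 3, Foxp1 circRNA_40606 in 2 and Foxp1 circRNA_40607 in 0. These settings are not all separate: leaving out WT 3 and keeping to 1 scan are the same fit, and 6 settings left the log2 fold change of Creb1 circRNA_013998 as it was and changed at most its spread or the circRNAs tested with it. The log2 fold change of Creb1 circRNA_013998 ranged from 0.84 to 1.81 over these settings, and those of circRNA_40606 and circRNA_40615 stayed above 0 in all 19. The smallest adjusted limma p that Creb1 circRNA_013998 reached was 0.435.

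**Figure D5:**
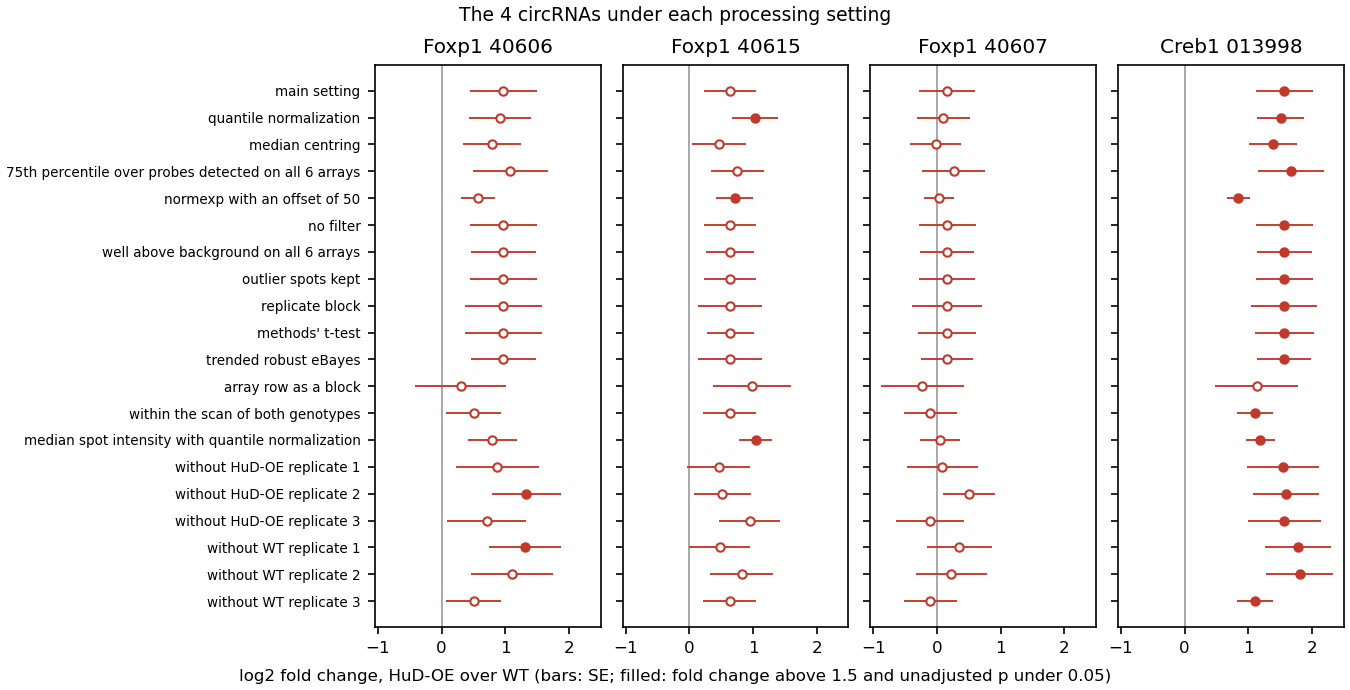
Log2 fold change of HuD-OE over WT with its SE (x axis) for each circRNA (panels) under the main and 19 other processing settings (y axis). Filled points passed both limits (1.5-fold and unadjusted p of 0.05), as Creb1 circRNA_013998 did in all but the fit with array row as a block.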

How the data were processed

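The authors deposited, for each of 6 single-color arrays, scanner output of Feature Extraction 11.0.1.1. Its linear intensity is the brightness of a spot, its processed intensity is corrected for background, and neither was scaled across arrays. Further deposited tables give the authors' own fold changes and p-values, and of these tables only circRNA names, host genes, positions, miRNA sites and sequences were used. The 24 columns of per-sample values there were left out. The annotation paired 721 of 726 circRNAs with a gene. Both gene lists come from the study's supplementary list of HuD-bound circRNAs, which also places all 4 circRNAs. The scaling the authors applied is not given in the sources used here.

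From the log2 of the processed intensity, each array's 75th percentile over non-control spots was subtracted. Outlier spots were set aside. Probes well above background on at least 3 arrays were tested, 13460 in all, in R 4.3.3 with limma 3.58.1 (lmFit, then eBayes, two-sided and without a block) and Benjamini-Hochberg adjustment. The limits for a call were a 1.5-fold difference and an unadjusted p of 0.05. Exact permutation tests compared the 3 HuD-OE with the 3 WT arrays. The script was tested on simulated data. Figures used Python 3.11.15 and matplotlib 3.10.9.

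The 4 circRNAs and the lists were chosen with earlier results of these data known. In each list, circRNAs past both limits and the 2 highest and 2 lowest were named, and the 3 most similar circRNAs by Pearson's r for each of the 4. Alternatives were other scalings, normexp with an offset of 50, other filters, the t-test of the methods, trended robust settings, blocks for replicate number, array row and scan, and each array left out. Median spot intensity with quantile normalization was added after seeing the data. The precision is limited by having 3 arrays in each genotype.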

Additional observations from a re-analysis of the deposited data

How the results depend on the processing

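Foxp1 circRNA_40606 passed both limits only without HuD-OE 2 (1.33) or WT 1 (1.31), and leaving out 1 array gave 0.50 to 1.33. Foxp1 circRNA_40615 passed with quantile normalization (1.03), normexp (0.71) and, chosen after seeing the data, median spot intensity with quantile normalization (1.04), and ranged from 0.46 to 0.95 with 1 array left out. Foxp1 circRNA_40607 turned to -0.020 with median centring, -0.23 with array row as a block and -0.10 within the scan of both genotypes, and ranged from -0.11 (without HuD-OE 3) to 0.50 with 1 array left out. Creb1 circRNA_013998 lost its call with array row as a block (1.13), which rests on 1 WT array, and ranged from 1.11 to 1.81 with 1 array left out. Within Foxp1, the change of circRNA_40606 minus circRNA_40615 turned to -0.11 with quantile normalization, -0.14 with normexp, -0.13 within the scan and -0.25 with median spot intensity with quantile normalization, and ranged from -0.24 to 0.83 with 1 array left out. That of circRNA_40606 minus circRNA_40607 ranged from 0.60 to 0.95 and that of circRNA_40615 minus circRNA_40607 from 0.02 to 1.06 with 1 array left out. The former was 0.54 with normexp, and the latter 0.93 with quantile normalization and 0.99 with median spot intensity with quantile normalization, and neither changed sign in any of the 12 settings run. The cause of these changes was not tested.

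Over all tested circRNAs, 338 were higher and 65 lower, against 127 and 301 with normexp, 74 and 17 with array row as a block, and 191 and 34 with the replicate block. The count of higher circRNAs was 131 when all 6 arrays had to be above background. The count of lower ones was 99 with quantile normalization, 20 with the t-test of the methods, 39 with trended robust settings, 27 within the scan, and 112 (beside 229 higher) with median spot intensity and quantile normalization. With 1 array left out, 180 to 769 were higher and 5 to 716 lower, the low ends without HuD-OE 3 and the high ends without WT 1. The counts without HuD-OE 1 (196 higher), WT 2 (25 lower) and WT 3 (27 lower) also moved by over 1.5 times. No circRNA passed an adjusted limma p of 0.05 in any of these settings. At an unadjusted p under 0.05 there were 403 by limma and 396 by the t-test. Over all tested circRNAs the log2 fold change had a median of 0.15, and of 0.004 after quantile normalization.

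Replicate numbers gave no sign of pairing, but with 3 arrays per genotype, dim ones among them, the check cannot exclude it. The deviations of same-numbered arrays from their genotype mean correlated at -0.16, -0.20 and -0.56. With the replicate block, Creb1 circRNA_013998 still passed both limits at 1.57 (limma, unadjusted p = 0.0183), and the Foxp1 circRNAs kept 0.97, 0.64 and 0.16 without passing. The paired values of the 3 isoform contrasts were 0.33, 0.81 and 0.49.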
